A study of Mus musculus with 6 samples.

Results

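The genes described here encode the proteasome outside its interferon-induced form. They were the genes whose probe set annotation named 1 gene alone with a symbol beginning *Psma*, *Psmb*, *Psmc*, *Psmd*, *Psme*, *Psmf* or *Psmg*, with *Psmb8*, *Psmb9* and *Psmb10* left out. The rule took 45 genes of the 12393 with such a probe set, and where a gene had several probe sets, the one brightest on average over the 6 arrays was used. The rule itself used no measured difference, but it was set with earlier results of these data known. RNA of untreated 3-week-old C57BL6 mice was hybridized to 6 Affymetrix mouse arrays, 3 labelled *SCLtg LMO1tg* and 3 labelled control. The *SCLtg LMO1tg* label stands for *Cd3ε-/-* thymocytes that carried an SCL transgene driven by the *Sil* promoter and an LMO1 transgene driven by the *Lck* promoter, which is active in T-lineage cells. The control label stands for *Cd3ε-/-* thymocytes without the transgenes, so that every mouse lacked a functional pre-TCR and had thymocytes arrested before its action. The comparison addresses how the SCL and LMO1 oncogenes changed gene expression in thymocytes that were not yet leukemic.

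The proteasome is the barrel-shaped protease that degrades proteins tagged with ubiquitin. Its core has an outer alpha ring at either end, which gates entry, and inner beta rings that hold the proteolytic sites of *Psmb5* (chymotrypsin-like), *Psmb6* (caspase-like) and *Psmb7* (trypsin-like). A regulatory cap of ATPases and non-ATPase subunits binds tagged proteins, removes the ubiquitin and unfolds the chain. In hematopoietic cells *Psmb8*, *Psmb9* and *Psmb10* can take the place of the 3 proteolytic subunits, and thymic cortical epithelium has a further beta subunit, *Psmb11*. The annotation gave no probe set for *Psmb11* and none that named *Psme2* alone, so neither was measured.

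The targeted genes were read first as a check of the labels. *Lmo1* read 5.11, 5.07 and 4.86 in the arrays labelled *SCLtg LMO1tg*, against 6.64, 6.84 and 6.77 in those labelled control, on the log2 scale of the deposited values. It was thus lower by label in the group said to carry the transgene, with a log2 difference of -1.74 (SE 0.14, limma adjusted p = 8.3e-04), and no source read here says whether its probe set detects the transgene transcript. *Tal1*, the gene of SCL, was too dim to pass the filter on low values, at 4.55, 4.63 and 4.71 in the arrays labelled *SCLtg LMO1tg* against 4.35, 4.27 and 4.44 in those labelled control. *Cd3e* read between 8.53 and 8.65 in the arrays labelled *SCLtg LMO1tg* and between 8.41 and 8.72 in those labelled control, and whether its probe set lies in the deleted stretch is not known here. Because *Lmo1* goes against the labels, groups are named below by label only, and every difference is the arrays labelled *SCLtg LMO1tg* minus those labelled control. The direction so defined is opposite to that of the list of changed genes given with the study. The paper reports *Nfe2* as activated by SCL with LMO1 and *Ptcra* as inhibited by SCL. By label they differed by -1.44 (limma adjusted p = 0.0077) and 1.28 (limma adjusted p = 0.013), both without overlap. Which of the directions matches the genotypes was not tested.

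Other facts of the arrays touch the proteasome genes. The mean of 9 bacterial hybridization control probe sets was 10.24, 8.70 and 8.64 in the arrays labelled *SCLtg LMO1tg* and 9.19, 10.37 and 10.45 in those labelled control. This parts the arrays into a high set (*SCLtg LMO1tg* replicate 1 with control replicates 2 and 3) and a low set (*SCLtg LMO1tg* replicates 2 and 3 with control replicate 1), each holding both labels. The spread (SD) of all probe sets of an array was 1.86, 1.92 and 1.96 in the arrays labelled *SCLtg LMO1tg* and 1.92, 1.83 and 1.79 in those labelled control, so that the deposited arrays were not of equal width. Thymocyte markers were present, 12 of the 13 on the array passing the filter. The summed log2 level of the 12 neutrophil markers, all above the filter, was 77.9 to 85.1 in the arrays labelled *SCLtg LMO1tg* against 68.0 to 76.2 in those labelled control, without overlap. The markers did not move alike. *S100a8*, *S100a9*, *Ngp*, *Camp*, *Ltf* and *Lcn2* differed by 0.88 to 2.09 and *Mpo* by 0.34. *Elane*, *Cxcr2*, *Csf3r*, *Mmp8* and *Mmp9* differed by -0.14 to 0.002. The sum of 6 erythroid markers, 3 of them below the filter, was 34.0 to 37.7 against 32.7 to 33.9, and that of 5 B cell markers 25.2 to 25.9 against 26.5 to 28.2, both without overlap, while the sums of thymocyte, cortical epithelium and macrophage or dendritic markers overlapped. Of the erythroid markers above the filter, *Slc4a1* differed by 1.07, *Alas2* by 0.55 and *Klf1* by -0.03. Of the B cell markers above it, *Ms4a1* differed by -0.77, *Cd79a* by -0.64 and *Cd79b* by 0.01. The thymocyte markers above it did not move alike either. *Ptcra* differed by 1.28, *Rag1* by 0.97 and *Rag2* by 0.82, each without overlap. The other thymocyte markers above the filter overlapped, with differences from -0.18 for *Cd3g* to 0.36 for *Thy1*. The 3′ minus 5′ signal of *Actb* was 2.26 to 2.71 in the arrays labelled *SCLtg LMO1tg*, and 1.48 in control replicate 2 against 2.52 and 2.86 in the other controls, and that of *Gapdh* was 3.10 to 3.51, and 2.38 in control replicate 2 against 3.17 and 3.01. In such bulk RNA, fewer cells of a type and less RNA per cell cannot be told apart.

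Promoter sequence in RefSeq (GRCm38.p6) was at hand for 37 of the 45 genes, not for *Psma8*, *Psmb1*, *Psmb2*, *Psmb7*, *Psmc3*, *Psmd3*, *Psmd7* and *Psmg2*. The 250 bases before the annotated start are given for 5 genes from different parts of the complex and its assembly that the results turn on: *Psmd14* (chr2:61711444-61711693, plus strand), *Psma2* (chr13:14612992-14613241, plus strand), *Psmc6* (chr14:45329574-45329823, plus strand), *Psmg1* (chr16:95990961-95991210, minus strand) and *Psmb5* (chr14:54617996-54618245, minus strand). Each runs 5′ to 3′ on the gene's strand, and capitals mark the letters CGGAAG (an ETS-type core), CCAAT (the CCAAT box) or TGANNNNGC (the relaxed core bound by small Maf dimers, among them those with Nfe2l1, a regulator of proteasome genes) on either strand.
Psmd14: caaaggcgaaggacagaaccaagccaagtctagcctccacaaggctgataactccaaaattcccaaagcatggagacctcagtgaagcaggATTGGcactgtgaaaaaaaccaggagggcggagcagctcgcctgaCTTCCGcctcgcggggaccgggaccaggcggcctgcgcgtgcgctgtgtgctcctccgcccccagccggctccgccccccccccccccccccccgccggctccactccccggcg
Psma2: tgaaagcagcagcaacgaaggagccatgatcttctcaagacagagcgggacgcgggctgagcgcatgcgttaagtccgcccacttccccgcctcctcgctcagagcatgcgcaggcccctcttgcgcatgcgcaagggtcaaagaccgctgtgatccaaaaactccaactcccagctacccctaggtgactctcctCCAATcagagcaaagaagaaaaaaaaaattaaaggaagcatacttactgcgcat
Psmc6: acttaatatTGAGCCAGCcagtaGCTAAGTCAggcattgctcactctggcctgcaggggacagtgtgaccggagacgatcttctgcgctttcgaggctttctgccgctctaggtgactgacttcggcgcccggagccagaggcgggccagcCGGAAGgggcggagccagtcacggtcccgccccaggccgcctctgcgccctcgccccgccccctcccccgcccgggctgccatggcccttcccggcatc
Psmg1: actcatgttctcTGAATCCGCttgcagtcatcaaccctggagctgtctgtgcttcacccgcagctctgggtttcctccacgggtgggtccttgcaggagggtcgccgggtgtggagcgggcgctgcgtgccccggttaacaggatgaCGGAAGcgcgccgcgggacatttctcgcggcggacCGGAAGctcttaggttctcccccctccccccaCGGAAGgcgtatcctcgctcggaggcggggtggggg
Psmb5: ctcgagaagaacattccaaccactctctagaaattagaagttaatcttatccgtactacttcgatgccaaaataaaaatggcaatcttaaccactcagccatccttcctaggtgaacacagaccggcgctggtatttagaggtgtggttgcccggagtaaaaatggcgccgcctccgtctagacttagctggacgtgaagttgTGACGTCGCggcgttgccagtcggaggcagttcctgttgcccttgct

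*Psmg1* held CGGAAG 3 times and *Psmd14* and *Psmc6* held it once each, *Psmd14* in the reverse orientation. *Psma2* had a CCAAT box but no CGGAAG, and *Psmb5* had neither of them. CGGAAG stood in 19 of the 37 windows (51.4%), against 28.4% of the 7047 windows of genes tested and 15.3% of all 27025 windows. The other motifs searched on both strands were about as frequent in the proteasome windows as elsewhere or less so: CCAAT in 14 (37.8%, against 40.03% of genes tested), TGANNNNGC in 15 (40.5%, against 40.9%), its subset TGACNNNGC in 5 (13.5%, against 13.5%), CACGTG in 4 (10.8%, against 9.92%) and CAGCTG, an E-box form that SCL and E protein dimers can bind, in 2 (5.41%, against 13.9%). The median GC content was 57.6% in the proteasome windows and 59.6% in the windows of genes tested. These are matches of letters, not binding sites.

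Of the 45 genes, 44 passed the filter on low values, which asked for 3 of the 6 arrays at or above the array's 40th percentile and took no account of the groups. The exception was *Psma8*, an alpha subunit of germ cells, at 4.13, 4.18 and 4.13 in the arrays labelled *SCLtg LMO1tg* and 4.22, 4.15 and 4.16 in those labelled control. No proteasome gene passed limma at an adjusted p under 0.05, where 14 of the 8693 genes tested passed (0.161%), or under 0.1, where 33 passed (0.38%). The lowest adjusted p among the 44 was 0.404. Rank products, the method named for the study, passed none of the 44 either and 91 of all genes (1.05%). Even so, 33 of the 44 had a positive difference (75.0%), against 48.7% of all genes tested. Their median log2 difference was 0.16, from -0.14 to 0.69, against a median of -0.01 over all genes. At an unadjusted p under 0.05 there were 5 proteasome genes (11.4%), all higher in the arrays labelled *SCLtg LMO1tg*, where 9.44% of all genes reached that level, 6.3% higher and 3.14% lower. The groups did not overlap for 6 of the 44 (13.6%), again all higher, against 13.7% of all genes without overlap, 7.32% higher and 6.37% lower. These shares describe the list and are no test of it.

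The size of this shift depended on the normalization. After a further quantile normalization, which gives the 6 arrays one distribution, the median of the 44 was 0.04, against -0.03 over all genes. Of the 44, 26 were positive (59.1%) and 18 negative, where 43.7% of all genes were positive. At an unadjusted p under 0.05 there were 0 of the 44, against 788 of all genes (9.06%). Single arrays also moved these counts. Without control replicate 1, 14 of the 44 (31.8%) were higher at an unadjusted p under 0.05, against 13.5% of all genes, and without *SCLtg LMO1tg* replicate 1 there were 11 (25.0%), against 9.87%. Without any other single array there was 1 (2.27%), against 2.80% to 4.36% of all genes. Genes higher without overlap numbered 20 (45.5%, against 19.8% of all genes) without control replicate 1, 15 (34.1%, against 19.6%) without *SCLtg LMO1tg* replicate 1, and 6 or 7 (13.6% or 15.9%, against 9.39% to 10.9%) without any other array. Control replicate 1 and *SCLtg LMO1tg* replicate 1 are each the only array of their label in their hybridization set. Without either, the rest of its label lay wholly in the other set, so that label and set were parted less. The difference of 39 of the 44 genes moved by over 1.5 times in one or more of the fits without a single array, the others being *Psma2*, *Psmb5*, *Psmd3*, *Psmd14* and *Psmf1*. With limma array weights, which lower the weight of less regular arrays, 547 of all genes passed (6.29%) and 5 of the 44 (11.4%), namely *Psmd14*, *Psma2*, *Psma3*, *Psmc6* and *Psmd6*, with 0.029 as their lowest adjusted p.

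**Figure D1:**
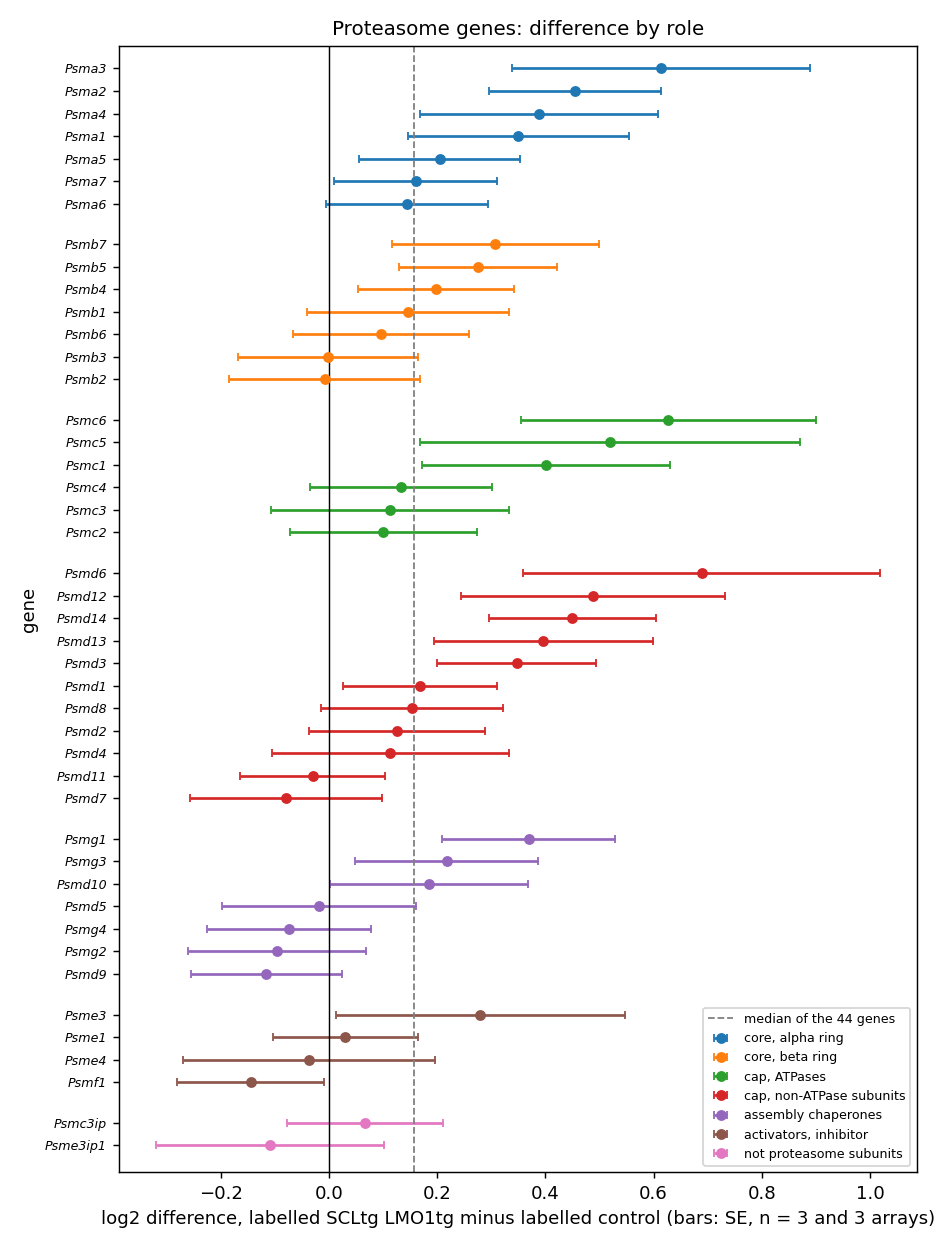
Log2 difference (arrays labelled SCLtg LMO1tg minus those labelled control) of the 44 proteasome genes tested, ordered by role, with bars giving the SE (n = 3 and 3 arrays) and a dashed line at their median. All genes of the alpha ring and all ATPases lie right of 0, and the assembly chaperones lie on both sides.

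The genes are taken by role, and differences between the role groups were not tested. All 7 alpha ring genes tested had a positive difference, from 0.14 for *Psma6* to 0.61 for *Psma3*, with a median of 0.35, and after the further quantile normalization all 7 were still positive with a median of 0.23. *Psma2* read 9.41, 9.43 and 9.65 in the arrays labelled *SCLtg LMO1tg*, against 9.20, 8.80 and 9.12 in those labelled control. The groups did not overlap, and the difference was 0.45 (SE 0.16, adjusted p = 0.407), or 1.37-fold. For *Psma3* the values were 9.91, 10.27 and 10.46 against 10.28, 9.20 and 9.32 in the arrays labelled control, where replicate 1 lay as high as the other group. The difference was 0.61 (SE 0.28, adjusted p = 0.526), or 0.95 without control replicate 1 and 0.42 without control replicate 2. It was 0.37 with the hybridization set as a block. *Psma4* had 7.62, 8.07 and 8.08 in the arrays labelled *SCLtg LMO1tg*, against 7.92, 7.55 and 7.13 in those labelled control (difference 0.39, SE 0.22, adjusted p = 0.596), with the same overlap through control replicate 1. At the low end, *Psma6* had 10.70, 10.59 and 10.73 against 10.75, 10.42 and 10.41 in the arrays labelled control (difference 0.14, adjusted p = 0.727), read by a probe set of the kind that may also bind other transcripts. *Psma1*, *Psma5* and *Psma7* lay between them, at 0.35, 0.20 and 0.16.

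In the beta rings, where proteins are cut, 5 of 7 genes were positive, with a median of 0.15 and a range of -0.01 to 0.31, and 3 of 7 after quantile normalization. *Psmb5*, the chymotrypsin-like subunit and the main target of proteasome inhibitor drugs, read 9.88, 10.04 and 9.86 in the arrays labelled *SCLtg LMO1tg*, against 9.83, 9.61 and 9.52 in those labelled control. Its groups did not overlap, by a margin smaller than their own spread (difference 0.28, SE 0.15, adjusted p = 0.577). After quantile normalization the difference was 0.11 and the groups overlapped. *Psmb6*, the caspase-like subunit, had 9.26, 9.02 and 8.998 in the arrays labelled *SCLtg LMO1tg*, against 9.02, 8.76 and 9.20 in the arrays labelled control. The groups overlapped, and the difference of 0.10 (SE 0.16, adjusted p = 0.833) turned to -0.06 after quantile normalization. The trypsin-like *Psmb7* read 9.42, 9.83 and 10.09 in the arrays labelled *SCLtg LMO1tg* and 9.67, 9.36 and 9.39 in those labelled control (difference 0.31, SE 0.19, adjusted p = 0.618), *SCLtg LMO1tg* replicate 1 lying among the controls. *Psmb4*, a structural subunit named here after its values were seen, was the other beta gene without overlap, at 9.85, 9.93 and 9.85 against 9.76, 9.79 and 9.48 in the arrays labelled control. Its difference was 0.20 (adjusted p = 0.652), or 0.03 after quantile normalization, where its groups overlapped. *Psmb2*, also structural, differed by -0.01 (adjusted p = 0.987), with 8.76, 8.61 and 8.46 in the arrays labelled *SCLtg LMO1tg* against 8.63, 8.90 and 8.32 in those labelled control, and *Psmb1* and *Psmb3* differed by 0.15 and -0.0015.

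The interferon-induced counterparts of the proteolytic subunits did not pass the test either. *Psmb8* differed by -0.07 (adjusted p = 0.881), *Psmb9* by 0.17 (adjusted p = 0.713) and *Psmb10* by 0.06 (adjusted p = 0.885), each within the spread between arrays.

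**Figure D2:**
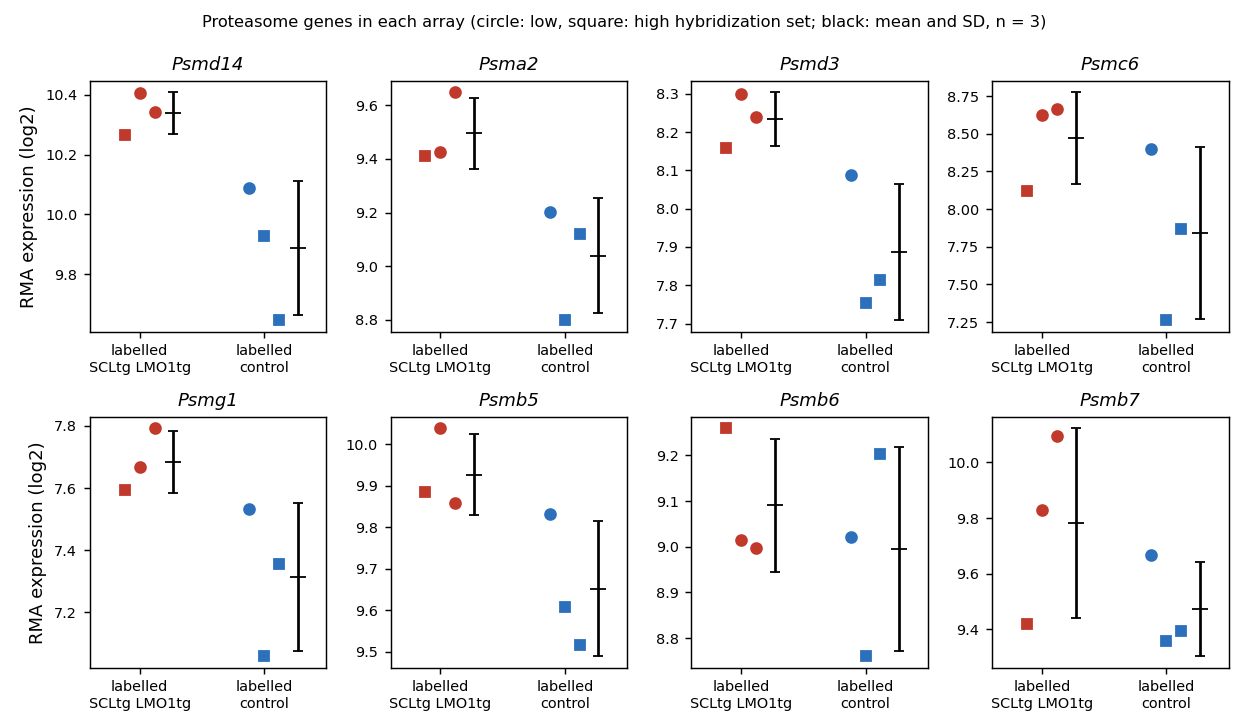
Log2 expression of 8 proteasome genes in each array, arrays labelled SCLtg LMO1tg left of those labelled control, with circles for the low and squares for the high hybridization set and the mean with its SD in black (n = 3). The groups do not overlap for Psmd14, Psma2, Psmd3, Psmg1 and Psmb5 and overlap for Psmc6, Psmb6 and Psmb7, and the control circle is the highest control for each of them except Psmb6.

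The cap feeds the core. All 6 ATPases, the motor that unfolds and threads proteins, had positive differences, with a median of 0.27 and a range of 0.10 to 0.63, and 4 of the 6 after quantile normalization. *Psmc6* read 8.12, 8.63 and 8.66 in the arrays labelled *SCLtg LMO1tg*, against 8.40, 7.26 and 7.87 in those labelled control, and its difference of 0.63 (SE 0.27, adjusted p = 0.520), or 0.34 without control replicate 2, came with overlapping groups. *Psmc1* had 7.05, 7.45 and 7.29 against 6.46 to 7.37 in the arrays labelled control (difference 0.40, SE 0.23, adjusted p = 0.598, or 0.20 without control replicate 3 and 0.65 without control replicate 1). *Psmc2* had the smallest difference, 0.10, with 10.62, 10.31 and 10.51 in the arrays labelled *SCLtg LMO1tg* against 10.27, 10.18 and 10.69 in those labelled control. It turned to -0.02 after quantile normalization, and its probe set may bind other transcripts. The other ATPases were *Psmc5*, with 0.52 and an SE of 0.35, the widest of the 44, *Psmc4* with 0.13 and *Psmc3* with 0.11.

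Of the 11 non-ATPase cap subunits, 9 had a positive difference, with a median of 0.17 and a range of -0.08 to 0.69, and 7 after quantile normalization. *Psmd14*, the deubiquitinase that strips ubiquitin from arriving proteins, had the lowest p of all proteasome genes. It read 10.27, 10.40 and 10.34 in the arrays labelled *SCLtg LMO1tg*, against 10.09, 9.93 and 9.65 in those labelled control. The means were 10.34 ± 0.07 and 9.89 ± 0.22 (SD, n = 3 each), without overlap, and the difference of 0.45 (SE 0.16), or 1.37-fold, had an adjusted p of 0.404. The scaffold subunit *Psmd3* was also without overlap, at 8.16, 8.30 and 8.24 against 8.09, 7.75 and 7.81 in the arrays labelled control (difference 0.35, SE 0.15, adjusted p = 0.510). *Psmd6* had the largest difference of the 44, 0.69 (SE 0.33, adjusted p = 0.546), or 1.61-fold. Its values were 7.23, 7.999 and 8.02 in the arrays labelled *SCLtg LMO1tg*, against 7.80, 6.47 and 6.91 in the arrays labelled control, so that *SCLtg LMO1tg* replicate 1 lay below control replicate 1. The difference was 0.39 without control replicate 2, 1.06 without control replicate 1 and 0.37 with the hybridization set as a block, below that of *Psmc6* (0.40) and *Psma2* (0.39). The scaffold subunits *Psmd12* (7.19, 7.76 and 7.76 against 7.42, 7.26 and 6.56) and *Psmd13* (8.47, 8.64 and 8.54 against 8.49, 8.28 and 7.69 in the arrays labelled control) differed by 0.49 and 0.40 (adjusted p = 0.563 and 0.571), both with overlap, or by 0.23 and 0.17 without control replicate 3. *Psmd7*, the inactive partner of *Psmd14*, read 6.41, 6.37 and 6.23 in the arrays labelled *SCLtg LMO1tg* against 6.37, 6.13 and 6.75 in those labelled control (difference -0.08, adjusted p = 0.873). The ubiquitin receptor *Psmd4* differed by 0.11, *Psmd1*, *Psmd8* and *Psmd2* by 0.17, 0.15 and 0.13, and *Psmd11* by -0.03.

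Assembly chaperones help to build the core or the cap and are absent from the finished complex. Of 7 tested, 3 were positive, with a median of -0.02 and a range of -0.12 to 0.37. *Psmg1*, which pairs alpha subunits early in ring assembly, was the highest, at 7.59, 7.67 and 7.79 in the arrays labelled *SCLtg LMO1tg*, against 7.53, 7.06 and 7.35 in those labelled control, without overlap (difference 0.37, SE 0.16, adjusted p = 0.520). Its partner *Psmg2* differed by -0.10, with 7.51, 7.96 and 8.01 in the arrays labelled *SCLtg LMO1tg* against 7.90, 7.97 and 7.89 in those labelled control. *Psmg3* and *Psmg4*, which act as a pair in alpha ring assembly, differed by 0.22 and -0.07. The ATPase chaperones *Psmd10*, *Psmd5* and *Psmd9* differed by 0.19, -0.02 and -0.12, *Psmd9* with 6.37, 6.18 and 6.23 against 6.38, 6.27 and 6.49 in the arrays labelled control (adjusted p = 0.761).

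The alternative activators and the inhibitor were split, with a median of -0.0033 and 2 of 4 positive. *Psme3*, a nuclear activator that works without ubiquitin, had 6.29, 7.35 and 7.33 in the arrays labelled *SCLtg LMO1tg*, against 6.85, 6.54 and 6.74 in those labelled control (difference 0.28, SE 0.27, adjusted p = 0.713), with replicate 1 of the first group below all controls. *Psmf1*, named for inhibition of the core in vitro, read 7.10, 6.92 and 7.004 in the arrays labelled *SCLtg LMO1tg*, against 7.08, 7.14 and 7.24 in the arrays labelled control (difference -0.14, adjusted p = 0.709). *Psme1*, part of an interferon-induced activator, differed by 0.03 and *Psme4*, an activator known from germ cells, by -0.04. The rule on symbols also took 2 genes that are no proteasome subunits, *Psmc3ip*, a meiotic recombination cofactor, at 6.997, 6.66 and 6.77 in the arrays labelled *SCLtg LMO1tg* against 6.72, 6.72 and 6.79 in those labelled control, and *Psme3ip1*, whose product binds Psme3, at 8.38, 8.82 and 8.54 against 8.73, 9.06 and 8.28 in those labelled control. They differed by 0.07 and -0.11, and without them 32 of 42 were positive with the same median of 0.16.

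Further probe sets of these genes gave a partial check. The 45 genes had 82 probe sets, of which 63 passed the filter, 19 of them beside the one chosen, for 16 genes. Of these 19, 15 had the sign of the chosen probe set and 4 the opposite, and none of the 63 passed limma. The second probe set of *Psmd6* differed by 0.72, of *Psmb4* by 0.57, of *Psma7* by 0.44 and of *Psme3* by 0.42, all with an unadjusted p under 0.05. The share of all probe sets at that level is not at hand. The second probe set of *Psmb4* is of the kind that may also bind other transcripts, and the chosen one of that gene differed by 0.20. The 4 of opposite sign were probe sets of *Psmd11* (0.33), *Psmb3* (0.12), *Psmb1* (-0.04) and *Psmd4* (-0.06). Probe sets of 1 gene read the same RNA and are not replicates.

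The level of the proteasome genes differed between arrays of one label by as much as between the labels. Averaged over the 44 genes, it was 8.25, 8.44 and 8.43 in the arrays labelled *SCLtg LMO1tg* and 8.37, 8.11 and 8.06 in those labelled control, with means of 8.37 ± 0.11 and 8.18 ± 0.17 (SD, n = 3 each). The 3 arrays of the low hybridization set were the 3 highest, and they were also the 3 of greatest width. *SCLtg LMO1tg* replicate 1 was the lowest of its group for 28 of the 44 genes (63.6%, against 39.7% of all genes), and control replicate 1 the highest of its group for 25 (56.8%, against 38.3%). In the low minus the high set, the median of the 44 was 0.12 within the arrays labelled *SCLtg LMO1tg* and 0.26 within those labelled control, against -0.01 and 0.02 over all genes. After quantile normalization the mean level was 8.28, 8.37 and 8.30 against 8.31, 8.20 and 8.17, or 8.32 ± 0.04 and 8.23 ± 0.07 (SD, n = 3 each). The neutrophil sum was 83.0, 77.9 and 85.1 in the arrays labelled *SCLtg LMO1tg* and 68.0, 74.2 and 76.2 in those labelled control. It was higher by label without overlap, so that its part cannot be told apart from that of the label. The part of array width, of the hybridization set and of other cell types in the difference between labels was not tested further.

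**Figure D3:**
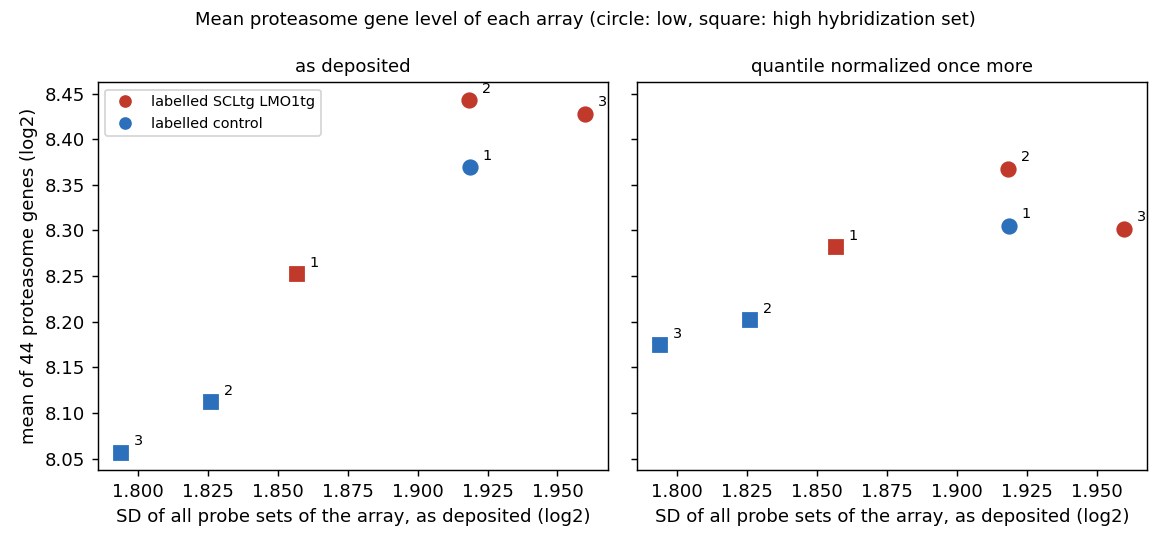
Mean log2 level of the 44 proteasome genes in each array (y axis) against the SD of all probe sets of that array (x axis, log2), as deposited (left) and after a further quantile normalization (right), with red for arrays labelled SCLtg LMO1tg, blue for those labelled control, circles for the low and squares for the high hybridization set, and replicate numbers beside the points. As deposited, the 3 circles lie between 8.37 and 8.44 and the 3 squares between 8.06 and 8.25, and after the normalization all 6 lie between 8.17 and 8.37.

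Within the sets, most of the genes were positive in each. The low set has control replicate 1 as its only control, and the high set has *SCLtg LMO1tg* replicate 1 as its only array of that label. In the low set that control read 9.19 on the hybridization controls, above *SCLtg LMO1tg* replicates 2 and 3 at 8.70 and 8.64. Label and hybridization level were thus not fully parted there. In the low set 30 of the 44 were positive, with a median of 0.07, where 4399 of all 8693 genes were positive. In the high set 33 of the 44 were positive, with a median of 0.20, where 4365 of all genes were. There were 24 positive in both (54.5%, against 30.4% of all genes), among them all 6 ATPases and 6 of the 7 alpha ring genes but only 3 of 7 beta ring genes. The difference of *Psmd14* was 0.28 within the low set and 0.48 within the high one, and that of *Psma2* 0.33 and 0.45. *Psma3* depended more on the set, with 0.09 and 0.65, and *Psme3* turned its sign, with 0.49 and -0.35. With the set as a block in limma, 36 of the 44 were positive, with a median of 0.12, where 4372 of all 8693 genes were positive. In that fit 5 of the 44 (*Psma2*, *Psma3*, *Psmd14*, *Psmd3* and *Psmd6*) had an unadjusted p under 0.05, all higher, against 5.96% of all genes higher at that level. None passed, and the lowest adjusted p was 0.359.

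**Figure D4:**
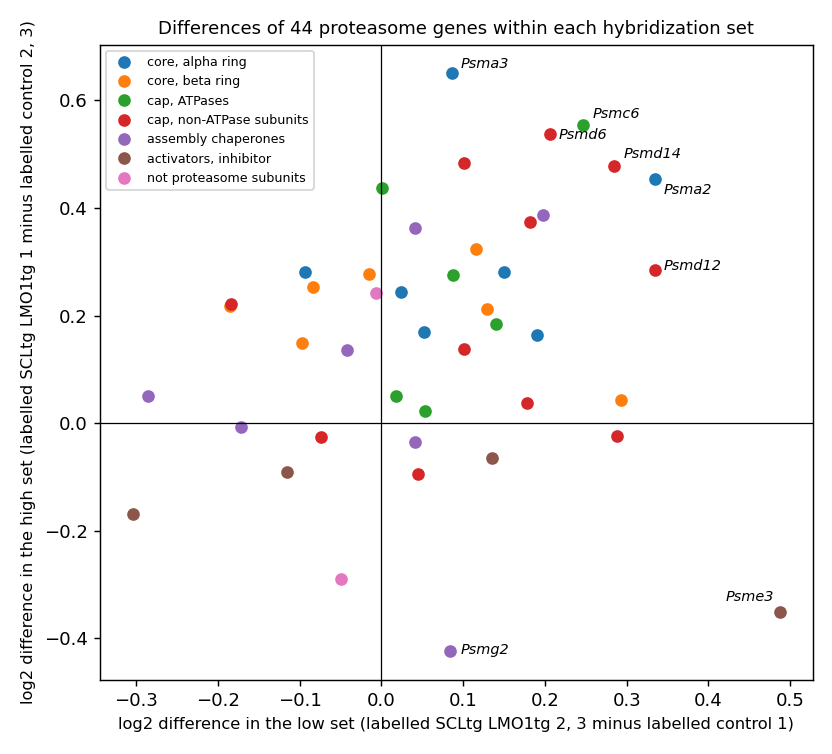
Log2 difference (arrays labelled SCLtg LMO1tg minus those labelled control) of each of the 44 proteasome genes in the low hybridization set (x axis) and in the high set (y axis), coloured by role. The upper right corner holds the 24 genes positive in both, with Psma2 and Psmd14 farthest from both axes and Psme3 and Psmg2 in the lower right.

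Proteins that work with the proteasome but carry other symbols were read beside it, from a list chosen with earlier results known. All 14 such partners tested had a positive difference, against 48.7% of all genes, with a median of 0.37 against -0.01. At an unadjusted p under 0.05 there were 4 (28.6%), all higher, against 6.3% of all genes higher, and none passed limma. These counts are from the deposited values, without the further quantile normalization. *Rad23b*, which shuttles ubiquitin-tagged proteins to the cap, had the largest, at 7.17, 7.98 and 7.83 in the arrays labelled *SCLtg LMO1tg* against 7.12, 6.82 and 6.22 in those labelled control (difference 0.94, SE 0.27, adjusted p = 0.299). The groups did not overlap, and it was the only partner within the rank products threshold, with an estimated share of false positives of 0.084. *Uchl5*, a deubiquitinase of the cap, differed by 0.87 (adjusted p = 0.445), *Txnl1*, a thioredoxin-like protein bound to the cap, by 0.58 (adjusted p = 0.505) and *Pomp*, the maturation factor of the core, by 0.41 (adjusted p = 0.515). The ubiquitin-conjugating enzyme genes *Ube2k*, *Ube2n* and *Ube2d3* differed by 0.62, 0.41 and 0.19. Of 7 genes for p97 and its cofactors, which extract tagged proteins from complexes, 5 were positive, with 0.23 for *Faf1*, 0.15 for *Nploc4* and 0.24 for *Ubxn1*. Among 8 regulators of proteasome genes, 3 were positive, *Nfe2l1* with 0.12, and 5 negative, *Maff* with -0.28 and *Keap1* with -0.23. No gene of these lists passed limma.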

How the data were processed

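Each of 6 *Cd3ε-/-* thymocyte samples, 3 labelled *SCLtg LMO1tg* and 3 labelled control, was read on 1 Affymetrix mouse array. The deposited table gives 1 log2 value per array for each of 22690 probe sets, which the authors obtained by RMA (affy, in R). They then removed probe sets absent by MAS5 and applied Rank Products, and neither step is in the deposited values. Versions are not given in the sources used here. A single gene was annotated to 20380 probe sets. Left out were those with several genes (691), those with no gene (1606) and the Affymetrix controls (64), groups that share some probe sets. Values ran from 2.36 to 14.12, and arrays correlated pairwise at 0.969 to 0.994.

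Probe sets at or above the array's 40th percentile on at least 3 of 6 arrays were kept, and 1 per gene, that with the highest mean, gave 8693 genes. The test was limma 3.58.1 (R 4.3.3) without covariates, with Benjamini-Hochberg adjustment over all genes and a threshold of 0.05. Rank products used the 9 pairwise differences, 100 permutations and a threshold of 0.1. The scripts were tested on simulated data. Alternatives were other filters, normalizations, variance models and array weights, a replicate block, the hybridization set, leaving out each array, and averaging a gene's probe sets. Separate animals are not stated for the arrays of a label. The p-values therefore reflect only how far these samples vary, which may be technical, and 6 arrays limit the precision. Two-sided exact permutation of 3 against 3 arrays cannot go below p = 0.1 and was not used.

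The genes, lists and alternatives were chosen with earlier results of these data known. Named with values were the 12 proteasome genes of smallest p, *Psmb5*, *Psmb6* and *Psmb7*, the highest and lowest gene of each role group, up to 3 genes of each further list and the immunoproteasome genes, and for other genes the difference alone. Sequences came from RefSeq tables and were searched with Python 3.11.15.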

Additional observations from a re-analysis of the deposited data

How the results depend on the processing

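The median difference of the 44 proteasome genes kept its sign in every alternative run, from 0.04 after a further quantile normalization to 0.25, and from 0.12 to 0.25 when single arrays were left out. The number of proteasome genes passing limma was 0 in each alternative except array weights, where it was 5. At an unadjusted p under 0.05 there were 5 as deposited, where 9.44% of all genes reached that level. There were 0 after quantile normalization (9.06% of all genes), 20 with array weights (30.1%) and 1 to 14 when single arrays were left out (4.54% to 20.6%). Genes without overlap numbered 6, all higher, against 7.32% of all genes higher and 6.37% lower. After quantile normalization they numbered 4 (9.09%), all higher, against 6.15% of all genes higher. When single arrays were left out they numbered 7 to 21, where 9.39% to 19.8% of all genes were higher without overlap and 7.94% to 20.7% lower. With a gene's probe sets averaged, 7 had an unadjusted p under 0.05 and 9 were without overlap. No share over all genes is at hand for those counts. Over all genes, 31 passed after quantile normalization, 547 with array weights, 28 when the hybridization set was a block, 33 at an adjusted p under 0.1, 91 by rank products and 7 to 27 when single arrays were left out, against 14. Array weights brought past the threshold *Psmd14*, *Psma2*, *Psma3*, *Psmc6*, *Psmd6*, *Rad23b*, *Uchl5*, *Txnl1* and *Ube2k*. The cause was not tested.

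With the replicate number as a block, 9 genes passed, 0 of them proteasome genes. In that fit 2 proteasome genes had an unadjusted p under 0.05, a count for which no share over all genes is at hand. Residuals of same-numbered arrays correlated at -0.64, 0.01 and -0.38, and they were therefore not treated as pairs.

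Signs turned for some of the named genes. After quantile normalization *Psmb6* was at -0.061, *Psmc2* at -0.019 and *Psmb10* at -0.086. *Psmb2* was at 0.040 with arrays centred on their medians and at 0.026 when the set was a block. With array weights *Psmd7* was at 0.043 and *Psmc3ip* at -0.028. With single arrays left out, *Psmb6* ranged from -0.022 to 0.20, *Psmb2* from -0.16 to 0.13, *Psmd7* from -0.22 to 0.086, *Psmc3ip* from -0.027 to 0.14, *Psme3ip1* from -0.31 to 0.076, *Psmb8* from -0.16 to 0.054 and *Ubxn1* from -0.047 to 0.51. In all, 13 of the 44 proteasome genes turned their sign when a single array was left out.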
